A study of Homo sapiens with 15 samples.

Results

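The comparison described here sets 2 recruited activation domains against each other at a shared target, the gene CD4. Both lines derive from MelJuSo, a human melanoma cell line, and both carry dCas12a fused to VP64 and to a 5xALFA tag, together with a cassette of 3 guides against CD4. The p65 line with guides has a nanobody fused to p65, and the VP64 line with guides has the nanobody fused to VP64. The 6 libraries, replicates A, B and C of each line, were taken by these labels from the 15 libraries of the series. The other 9 come from the p65 line without guides, the VP64 line without guides and a line with tagged dCas12a lacking VP64, the bare nanobody and no guides, here the line without an activation domain. Since dCas12a itself carries VP64 in both lines, the p65 line holds VP64 and p65 and the VP64 line holds VP64 in both positions.

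dCas12a is a form of the CRISPR nuclease Cas12a that no longer cuts DNA but still binds at the sites its guide RNAs match. VP64 is a synthetic tandem repeat of a herpesvirus activation motif that contacts Mediator and other coactivators, and p65 is the activation portion of RELA, a subunit of the transcription factor NF-kB. The nanobody binds the ALFA tag, a short peptide, so that each copy of the tag can bring a further activation domain. Melanoma cells move between a pigmented, SOX10-positive state and dedifferentiated states, and their growth commonly runs through the ERK kinase pathway, which drives immediate-early genes such as FOS and EGR1.

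Expected counts summed to between 16850958 and 20291503 in the p65 libraries with guides and between 15643705 and 19361567 in the VP64 libraries with guides, and 19659 to 20305 genes had a count in these 6 libraries. The labels do not say whether replicates were separate cultures, so p-values measure the spread between these samples, which may be technical. There is 1 line per combination, so differences between the domains and differences between the lines that carry them cannot be told apart. Levels are given as CPM, counts scaled to library size, in replicates A, B and C, folds as the log2 fold change of p65 over VP64 with its standard error (SE, n = 3 libraries per line), and p-values as those of edgeR after Benjamini-Hochberg adjustment over 14961 genes. A gene is called higher or lower where the adjusted p is below 0.05. SOX10, the lineage factor of melanocytes, had 301 to 352 CPM in the p65 libraries with guides and 372 to 431 CPM in the VP64 libraries with guides, while CD3D, CD3E and CD3G, which define T cells, were at 0 in all 6. Other T cell markers, IL7R and TRAC among them, were not at 0 in all of these libraries.

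CD4, the co-receptor with which helper T cells read MHC class II (ENSG00000010610.9 on chromosome 12 of hg38, 6786858 to 6820808), stood at a like level in both lines. It had 2130, 2130 and 1930 CPM in the p65 line with guides, against 1930, 1940 and 1820 CPM in the VP64 line with guides. Per length, its level was 1002 ± 56.1 TPM in the p65 line with guides and 924.1 ± 27 TPM in the VP64 line with guides (SD, n = 3 each; exact 2-sided permutation p = 0.2, where 0.1 is the smallest possible). The log2 fold change was 0.12 (SE 0.1, 95% interval -0.09 to 0.33, adjusted p = 0.556). RELA, which encodes the full NF-kB subunit, had 110, 108 and 107 CPM in the p65 line with guides and 110, 107 and 106 CPM in the VP64 line with guides, and its log2 fold change was 0.01 (SE 0.039, adjusted p = 0.957). The RELA levels of both lines overlapped.

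Of 14961 genes, 1185 differed between the p65 and VP64 lines with guides (7.92%), 557 higher (3.72%) and 628 lower (4.2%) with p65. Irrespective of the test, the 3 p65 and 3 VP64 libraries did not overlap for 22.2% of genes with guides (11.2% higher and 11% lower) and 20.4% without guides (9.7% higher and 10.7% lower). Of the 1185, 65 differed at least 2-fold (0.434%), 43 higher (0.287%) and 22 lower (0.147%). Of the 43, 27 had a mean below 1 CPM in the VP64 line with guides and 26 had a mean below 1 CPM in all 3 lines without guides. Such genes could pass the low-count filter through the p65 line with guides alone, so these counts are partly set by the filter, and with a filter on a mean of at least 1 CPM the 65 became 40. Without replicate B of the VP64 line with guides the total was 681 genes, and without replicate C of the p65 line with guides it was 709.

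The 15 genes named per direction for their fold were called, with a symbol and a mean of at least 1 CPM. They were also picked for no overlap between the 3 and 3 libraries, so their lack of overlap is not a separate result. Among them, the largest rises with p65 included a glycosyltransferase relative, a peptide carrier, an immunoglobulin receptor and a secreted peptide precursor. MGAT4C, related to the N-acetylglucosaminyltransferases that branch N-glycans (ENSG00000182050.13, chromosome 12, 85955666 to 86838904), had 23.4, 21.5 and 22.3 CPM in the p65 line with guides, against 0.709, 1.14 and 0.695 CPM in the VP64 line with guides. Its log2 fold change was 4.69 (SE 0.186, adjusted p = 1.89e-13). All 9 libraries without guides lay at or below 0.156 CPM.

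SLC15A2, a proton-coupled carrier of dipeptides and tripeptides (ENSG00000163406.10, chromosome 3, 121894089 to 121944102), had 5.23, 3.67 and 4.64 CPM in the p65 line with guides, against 0.129, 0.155 and 0.316 CPM in the VP64 line with guides (4.47, SE 0.379, adjusted p = 7.28e-08). The VP64 line with guides was as low as the lines without guides, where the gene had 0.0509 to 0.307 CPM. With an offset for the effective gene lengths the log2 fold change was 2.71 and the call was lost. PIGR, the receptor that carries polymeric immunoglobulin across epithelia (ENSG00000162896.5, chromosome 1, 206928518 to 206946466), had 9.79, 7.76 and 8.48 CPM in the p65 line with guides and 0.709, 0.62 and 0.442 CPM in the VP64 line with guides (3.86, SE 0.252, adjusted p = 1.21e-09). The lines without guides had 0.107 CPM of PIGR or less.

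ECRG4, a secreted peptide precursor, had 2.37, 1.9 and 2.22 CPM in the p65 line with guides, against 0.0644, 0 and 0.189 CPM in the VP64 line with guides, where it rested on 4 counts in all (4.66, SE 0.582, adjusted p = 2.63e-05). ESYT3, a tether between the endoplasmic reticulum and the plasma membrane, had 3.03, 2.84 and 3.16 CPM in the p65 line with guides and 0.322, 0.258 and 0.316 CPM in the VP64 line with guides (3.32, SE 0.415, adjusted p = 4.66e-05). ESYT3 had 0 counts in both the p65 and the VP64 lines without guides. THEG, a testis gene, had 2.17 to 2.84 CPM in the p65 line with guides and 0.129 to 0.695 CPM in the VP64 line with guides (2.92, SE 0.496, adjusted p = 0.000938).

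Transcription factors were among them. TFCP2L1, a grainyhead-like factor of pluripotent cells and renal epithelium (ENSG00000115112.7, chromosome 2, 121216587 to 121285207), had 50.8, 47.9 and 56.1 CPM in the p65 line with guides and 14.2, 14.1 and 14.2 CPM in the VP64 line with guides (1.86, SE 0.090, adjusted p = 6.09e-12). Both lines with guides stood above the lines without guides, which had 2 to 3.9 CPM. TFEC, a relative of the melanocyte factor MITF, had 6.44, 7.4 and 6.81 CPM in the p65 line with guides and 1.61, 1.29 and 1.33 CPM in the VP64 line with guides (2.29, SE 0.232, adjusted p = 9.16e-07). The lines without guides had 0.256 to 1.06 CPM of TFEC.

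The other named higher genes had log2 fold changes of 1.32 to 1.75. They were PPFIA2, a liprin of synaptic scaffolds, CMAHP, a pseudogene of the sialic acid hydroxylase, ABCC2, an efflux pump for conjugated compounds, CRLF2, a subunit of the TSLP receptor, PSG2, a pregnancy-specific glycoprotein, and SSUH2. Of these, SSUH2 had the highest level, with 20, 25.3 and 20.6 CPM in the p65 line with guides and 8.63, 8.73 and 9.1 CPM in the VP64 line with guides (1.32, SE 0.144, adjusted p = 2.48e-06). The lines without guides had 0.272 to 1.69 CPM of SSUH2. PSG2 belongs to a family of near-identical genes, so its reads are uncertain, and its call (1.35, SE 0.411, adjusted p = 0.0464) was lost without any one of the 6 libraries, with values of 1.15 to 1.68. With the effective-length offset the calls of PPFIA2 (1.42), CRLF2 (1.38) and PSG2 (1.49) were lost.

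**Figure D1:**
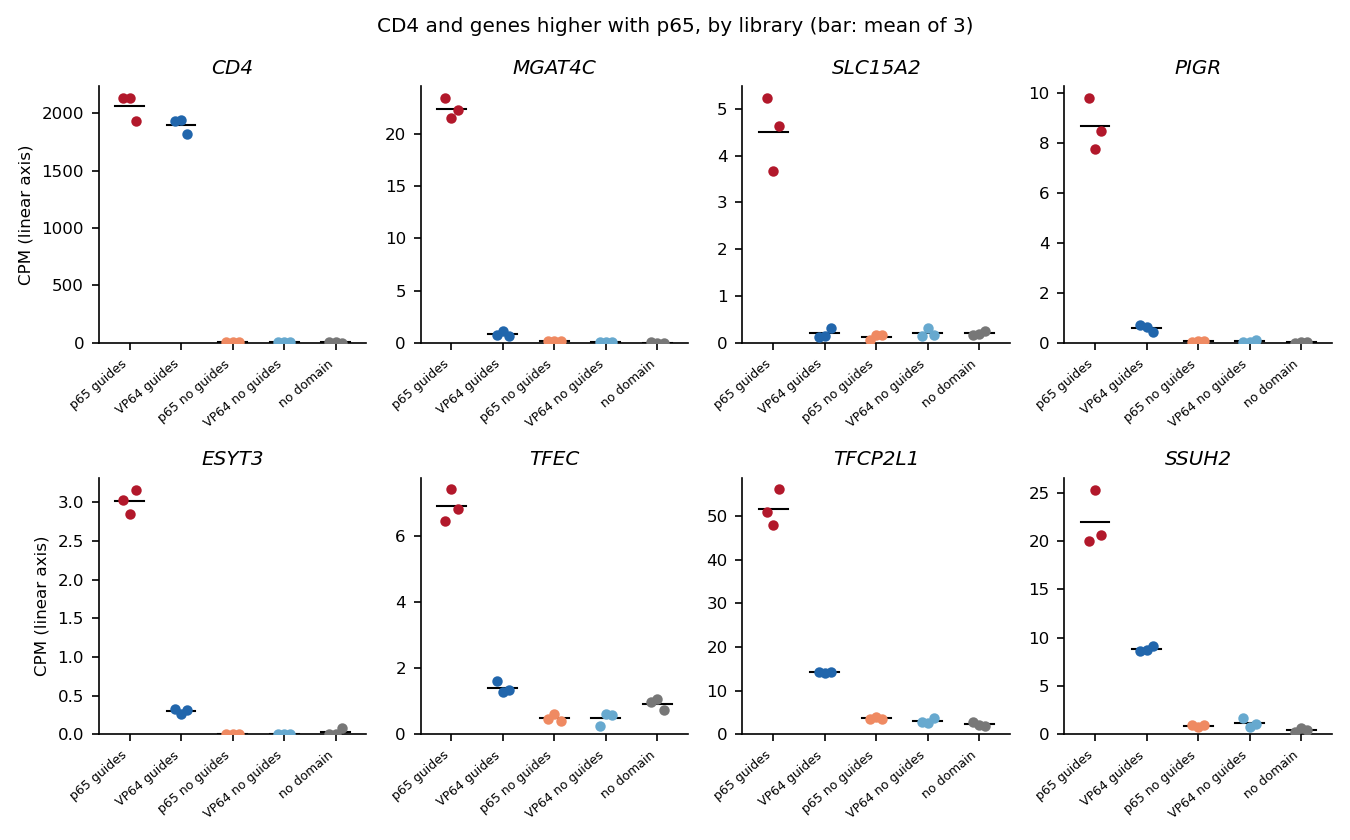
Levels in CPM (linear axis from 0, one scale per gene) of CD4 and 7 genes higher with p65, in each of the 15 libraries, with a bar at the mean of 3. CD4 is alike in the p65 and VP64 lines with guides, while MGAT4C reaches 21.5 to 23.4 CPM in the p65 line with guides and at most 1.14 CPM in any other line; for TFCP2L1 the VP64 line with guides lies between the p65 line with guides and the lines without guides.

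Promoter sequence is shown for 3 of these genes, chosen to span a low, a middle and a high level, so that the stretch upstream of each RefSeq start can be read beside its response. RefSeq promoters (GRCh38.p14) were found for 10 of the 15 named higher genes and 12 of the 15 named lower genes. These RefSeq starts differ from the ends of the gene intervals given above. The SLC15A2 window lies wholly within the interval of that gene, and the TFCP2L1 window reaches a few bases into its own. Each line gives the 250 bases before the RefSeq start, read 5′ to 3′, in lower case, with any match to 4 searched motifs in capitals.
SLC15A2 (GRCh38.p14, chr3:121894151-121894400, plus strand): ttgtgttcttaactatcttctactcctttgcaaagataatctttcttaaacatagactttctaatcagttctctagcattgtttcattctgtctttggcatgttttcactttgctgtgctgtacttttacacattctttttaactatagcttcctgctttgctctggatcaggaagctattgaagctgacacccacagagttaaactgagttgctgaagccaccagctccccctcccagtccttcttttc
PIGR (GRCh38.p14, chr1:206946467-206946716, minus strand): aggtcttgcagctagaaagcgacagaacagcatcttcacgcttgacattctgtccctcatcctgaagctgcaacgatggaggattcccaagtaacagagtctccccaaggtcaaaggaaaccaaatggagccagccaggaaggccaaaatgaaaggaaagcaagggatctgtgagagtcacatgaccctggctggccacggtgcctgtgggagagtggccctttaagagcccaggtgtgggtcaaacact
TFCP2L1 (GRCh38.p14, chr2:121285203-121285452, minus strand): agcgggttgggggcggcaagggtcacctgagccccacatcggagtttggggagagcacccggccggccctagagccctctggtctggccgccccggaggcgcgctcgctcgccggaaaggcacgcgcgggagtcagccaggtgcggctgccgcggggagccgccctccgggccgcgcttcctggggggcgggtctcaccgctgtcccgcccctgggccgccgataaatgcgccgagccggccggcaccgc
The motifs, searched on both strands, were the NF-kB consensus, the CArG box bound by SRF, the AP-1 site TGANTCA and the CRE core TGACG, none of which contains another. None of the 3 sequences above holds a match, so they have no capitals. Among the 16 promoters of the 10 higher genes found, 0 held the NF-kB consensus, against 9.96% of the 35116 promoters in the table, and 1 held the AP-1 site (6.25%, against 6.57% of the table). With 16 promoters from 10 genes, a count of 0 is too small a sample to read as a lack of the motif.

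Whether the difference between the domains depended on guides was tested by comparing it with that of the same domains in the lines without guides. Without guides, 315 genes differed (2.11%), 58 higher (0.388%) and 257 lower (1.72%) with p65, and 10 of them differed at least 2-fold (0.0668%), 1 higher (0.00668%) and 9 lower (0.0602%). The difference itself depended on guides for 143 genes (0.956%), 115 with a more positive fold with guides (0.769%) and 28 with a more negative one (0.187%). For 12 of these the folds themselves differed at least 2-fold (0.0802%), 11 positive (0.0735%) and 1 negative (0.00668%). Of the 557 genes higher with p65 with guides, 353 (63.4%) had the same sign without guides, 19 (3.41%) were also called higher there, and 98 (17.6%) passed the test of dependence in the same direction. Of the 628 lower genes, 559 (89%) had the same sign without guides, 160 (25.5%) were also called lower there and 24 (3.82%) passed the test of dependence in the same direction. Thus 179 genes were called in the same direction in both comparisons, 15.1% of the calls with guides and 56.8% of those without, and 7 were called in opposite directions. The comparisons with and without guides use different libraries, whereas the test of dependence uses the libraries with guides again. Genes called with guides are therefore more likely to pass it in the same direction. The 98 and 24 genes are thus not independent support for a dependence on guides.

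TFCP2L1 showed the dependence at a high level. It had 3.41, 3.9 and 3.61 CPM in the p65 line without guides, against 2.92, 2.61 and 3.64 CPM in the VP64 line without guides. These groups overlap, and the difference between the folds with and without guides was 1.61 (SE 0.176, adjusted p = 1.45e-05). SLC15A2 (5.12, SE 0.758), TFEC (2.28, SE 0.440) and SSUH2 (1.69, SE 0.316) were also among the 5 genes named for the largest positive dependence (edgeR adjusted p = 0.000632, 0.0089 and 0.00731 in that order), and with the effective-length offset these last calls were lost. MGAT4C and PIGR did not pass this test (3.68, SE 0.918, adjusted p = 0.0671 and 3.95, SE 0.965, adjusted p = 0.0614), and both rested on 4 to 9 counts in each of the p65 and VP64 lines without guides. SLC15A2 likewise rested on 8 counts in the p65 line without guides, 12 in the VP64 line without guides and 10 in the VP64 line with guides.

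**Figure D2:**
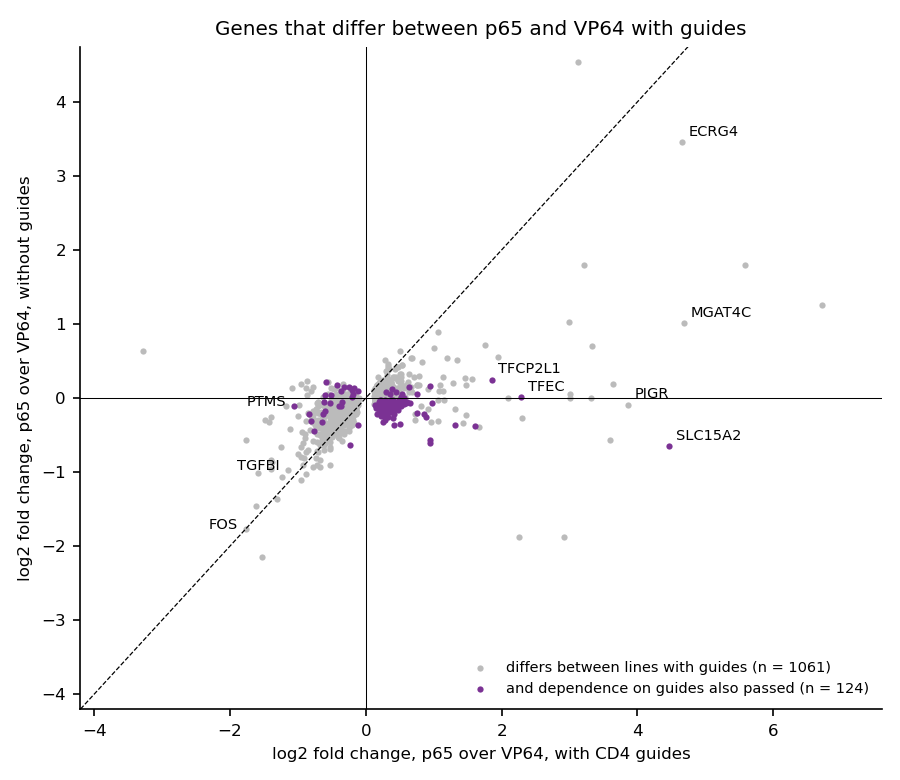
Each point is one of the 1185 genes that differ between the p65 and VP64 lines with guides, by the log2 fold change of p65 over VP64 with guides (horizontal) and without guides (vertical); the dashed line marks equal folds. Purple marks the genes whose difference also depended on guides. Among labelled genes with large positive folds with guides, PIGR, TFEC and TFCP2L1 lie near 0 without guides and SLC15A2 below 0. MGAT4C (1.01, SE 0.655) and ECRG4 (3.46, SE 1.569) lie above 0 there. Without guides PIGR rested on 4 counts in each line and ECRG4 on 4 with p65 and 0 with VP64, so their heights are uncertain. FOS and TGFBI lie near the dashed line.

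Genes lower with p65 included FOS, the AP-1 subunit induced within minutes of growth factor signals (ENSG00000170345.9, chromosome 14, 75278774 to 75282230). FOS had 101, 82.8 and 44.9 CPM in the p65 line with guides, against 383, 256 and 132 CPM in the VP64 line with guides (-1.76, SE 0.354, adjusted p = 0.00252). Replicates within a line differed by more than 2-fold, and the lack of overlap between the groups follows from how FOS was chosen. In all 5 lines replicate A was the highest and replicate C the lowest for FOS, and within each letter the p65 library was the lower. Without guides FOS had 35.3, 20.8 and 9.64 CPM in the p65 line and 95.1, 73.6 and 51.3 CPM in the VP64 line, with a fold of -1.77 on the log2 scale (SE 0.414, adjusted p = 0.0226). The FOS call without guides was lost without replicate B (-1.74) or C (-1.39) of the p65 line without guides, without replicate A (-1.54) or B (-1.77) of the VP64 line without guides and with the effective-length offset (-1.67). The difference between the folds with and without guides was 0.01 (SE 0.533, adjusted p = 0.996).

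EGR1, a zinc-finger factor induced by the same signals and named after its values were seen, had 199, 193 and 140 CPM in the p65 line with guides and 425, 340 and 214 CPM in the VP64 line with guides (-0.88, SE 0.183, adjusted p = 0.00328). Without guides it had 117, 100 and 86.2 CPM in the p65 line and 239, 209 and 171 CPM in the VP64 line (-1.03, SE 0.188, adjusted p = 0.00267). EGR1 showed the same order of replicate letters as FOS in all 5 lines. JUN, the partner of FOS in AP-1, had 128, 122 and 122 CPM in the p65 line with guides and 238, 195 and 152 CPM in the VP64 line with guides (-0.65, SE 0.098, adjusted p = 0.00013). In JUN too the p65 libraries lay below all VP64 libraries, both with guides and without.

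The promoters of FOS and EGR1 are printed because these genes fell with p65 in both comparisons, with capitals for motif matches.
FOS (GRCh38.p14, chr14:75278578-75278827, plus strand): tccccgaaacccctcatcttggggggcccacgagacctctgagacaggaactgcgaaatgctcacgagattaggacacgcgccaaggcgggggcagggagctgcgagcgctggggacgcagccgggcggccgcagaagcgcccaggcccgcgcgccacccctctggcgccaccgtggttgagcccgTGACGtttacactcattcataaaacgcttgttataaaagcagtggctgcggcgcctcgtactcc
EGR1 (GRCh38.p14, chr5:138465229-138465478, plus strand): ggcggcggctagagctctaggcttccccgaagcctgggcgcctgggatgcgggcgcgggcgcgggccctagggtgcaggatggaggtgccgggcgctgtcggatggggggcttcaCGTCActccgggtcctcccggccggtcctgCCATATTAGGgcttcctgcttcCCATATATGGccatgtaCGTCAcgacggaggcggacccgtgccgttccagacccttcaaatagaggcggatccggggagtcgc
The FOS window runs past the start of the gene interval given above. The capitals mark a CRE core in FOS that begins 64 bases before the RefSeq start. In EGR1 they mark CArG boxes that begin 105 and 83 bases before the start and CRE cores that begin 135 and 66 bases before it. The CArG box was found in 3 of 22 promoters of the 17 immediate-early genes in the table (13.6%), against 1.16% of all promoters, and the CRE core in 12 of 22 (54.5%), against 21.2%. The list holds genes that were not called, and 1 gene can count with several starts. These shares therefore describe the list and not the difference between the lines. Among the 14 promoters of the 12 lower genes found, 0 held a CArG box and 2 an AP-1 site (14.3%, against 6.57% of the table), too few promoters to read as a difference. A match in this window is a description of letters and not a sign of binding.

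TGFBI, a secreted matrix protein induced by TGF-beta (ENSG00000120708.16, chromosome 5, 136028895 to 136063818), had 81.3, 80.7 and 77.4 CPM in the p65 line with guides, against 185, 174 and 171 CPM in the VP64 line with guides (-1.15, SE 0.045, adjusted p = 1.89e-13). Without guides it had 75.1, 83.4 and 82.5 CPM in the p65 line and 160, 156 and 157 CPM in the VP64 line (-0.97, SE 0.045, adjusted p = 6.97e-12). The p65 lines were low and tight in both comparisons, and the line without an activation domain had 140 to 148 CPM. AMIGO2, an adhesion protein with leucine-rich repeats, had 6.1 to 6.81 CPM in the p65 line with guides and 12.7 to 13.5 CPM in the VP64 line with guides (-1.0, SE 0.089, adjusted p = 1.27e-07) and also fell without guides (-0.76, SE 0.078, adjusted p = 3.48e-06). Among named genes, CDH19, a cadherin of the Schwann cell lineage (-1.40 with guides, -0.96 without), CD96, an immune receptor (-1.31 and -1.37), and MPP4, a membrane scaffold protein (-1.23 and -1.06), were likewise called lower in both comparisons. Without guides the CDH19 call was lost without replicate A (-0.94) or B (-0.96) of the p65 line and without replicate B (-0.93) or C (-0.90) of the VP64 line. The CD96 call there was lost without replicate A (-1.25), B (-1.42) or C (-1.46) of the p65 line and without replicate A (-1.17) or B (-1.28) of the VP64 line. With only the libraries compared in the fit it was lost too (-1.37). CDH19, CD96 and MPP4 all lost the call without guides with the effective-length offset (-0.64, -1.21 and -0.82 in that order).

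Other named genes passed the test with guides only, which does not show a dependence on guides. C1QTNF1, a secreted C1q-related protein, had 3.49 to 4.46 CPM in the p65 line with guides and 8.05 to 8.62 CPM in the VP64 line with guides (-1.11, SE 0.152, adjusted p = 4.66e-05). CCNA1, cyclin A1, had 3.69 to 5.08 CPM in the p65 line with guides and 7.67 to 9.55 CPM in the VP64 line with guides (-1.0, SE 0.145, adjusted p = 9.08e-05). GASK1B (-1.40), the phagocytic receptor MEGF10 (-1.38), the gap junction protein GJB1 (-1.09) and the kinase LMTK3 (-0.98) lost the call with the effective-length offset (-1.15, -1.88, -1.07 and -0.87 in that order). MEGF10 (-1.09) and GJB1 (-0.98) also lost it without replicate C of the p65 line with guides, and GJB1 (-0.95) without replicate B of the VP64 line with guides. LMTK3 lost it without replicate B (-0.82) or C (-0.98) of the p65 line with guides and without replicate B (-0.96) or C (-0.90) of the VP64 line with guides. With only the libraries compared in the fit LMTK3 (-0.98) lost the call as well. SLCO4A1-AS1 (-1.76, SE 0.330, adjusted p = 0.00129) is an antisense gene, and its reads cannot be told apart from those of its partner because the strand setting is not given in the sources.

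The named genes whose fold became more negative with guides were PTMS (-0.94, SE 0.075, adjusted p = 3.94e-07), TOX2 (-0.79, SE 0.153, adjusted p = 0.0089), MT1X (-0.64, SE 0.117, adjusted p = 0.00599), INSIG1 (-0.61, SE 0.125, adjusted p = 0.0135) and TMEM59L (-0.61, SE 0.147, adjusted p = 0.0497). INSIG1, which retains the sterol sensor SCAP in the endoplasmic reticulum, had 43.7, 39.4 and 32.7 CPM in the p65 line with guides and 66.6, 74.9 and 63.2 CPM in the VP64 line with guides, whereas the lines without guides had 17.4 to 19.2 CPM with p65 and 20.3 to 22 CPM with VP64. The line without an activation domain had 142, 146 and 157 CPM of INSIG1, above both lines with guides. MT1X, a metallothionein, had 23.6 to 28 CPM in the p65 line with guides and 35.6 to 44.6 CPM in the VP64 line with guides, and it shares near-identical sequence with its relatives, so its reads are uncertain. TOX2, an HMG-box factor, had 10.1 to 11.8 CPM in the p65 line with guides and 13.8 to 17.7 CPM in the VP64 line with guides. TMEM59L (-0.42 with guides) lost its call with guides without replicate C of the p65 line with guides (-0.34), without replicate B of the VP64 line with guides (-0.39) and with the effective-length offset (-0.37).

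**Figure D3:**
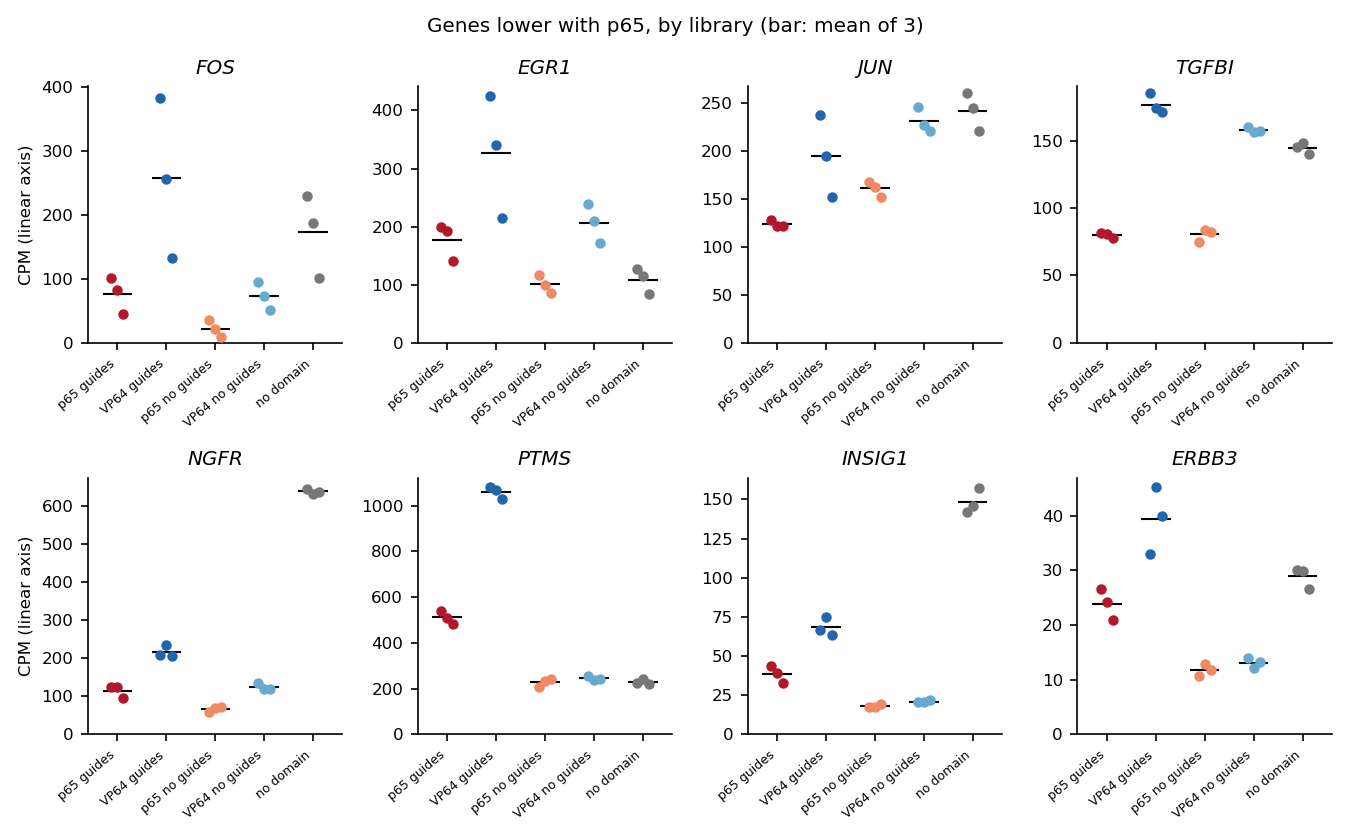
Levels in CPM (linear axis from 0, one scale per gene) of 8 genes lower with p65 in each of the 15 libraries, with a bar at the mean of 3. FOS, EGR1, JUN, TGFBI and NGFR are lower with p65 both with and without guides, while PTMS has 483 to 540 CPM in the p65 line with guides and 1030 to 1080 CPM in the VP64 line with guides and 207 to 256 CPM in the lines with p65 or VP64 and no guides.

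Near the target, PTMS and LAG3 were called lower with p65, while CD4 did not pass the test. PTMS, parathymosin, an acidic nuclear protein (ENSG00000159335.15, chromosome 12, 6765516 to 6770952), starts 21.3 kb upstream of the start of CD4. It had 540, 511 and 483 CPM in the p65 line with guides, against 1080, 1070 and 1030 CPM in the VP64 line with guides (-1.05, SE 0.053, adjusted p = 1.23e-11). Both lines with guides stood above the p65 line without guides (207, 234 and 242 CPM) and the VP64 line without guides (256, 239 and 242 CPM), which did not differ by the test (-0.11, SE 0.053, adjusted p = 0.377). LAG3, an inhibitory receptor of T cells that starts 14.3 kb upstream (chromosome 12, 6772512 to 6778455), had 1.38, 1.36 and 0.395 CPM in the p65 line with guides and 2.45, 2.27 and 2.65 CPM in the VP64 line with guides (-1.25, SE 0.360, adjusted p = 0.0336). The groups did not overlap, which was a condition of its choice. The LAG3 call was lost without replicate C of the p65 line with guides (-0.84), with the effective-length offset (-1.60) and with only the libraries compared in the fit (-1.25). It was also lost without replicate A (-1.26), B (-1.31) or C (-1.20) of the VP64 line with guides.

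Of 42 tested genes that start within 500 kb of the start of CD4, 0 were higher and 6 were lower with p65 with guides (background 3.72% and 4.2%), with a median log2 fold change of -0.09, against 0.00 over all genes. Without guides edgeR called 0 in either direction, with 2 higher and 4 lower at an unadjusted p below 0.05 and 1 higher and 1 lower in DESeq2, and the median was -0.06. Besides PTMS and LAG3 the lower genes were P3H3, a collagen prolyl hydroxylase (-0.32, SE 0.056), ENO2, the neuronal enolase (-0.27, SE 0.044), and the glycolytic enzymes TPI1 (-0.15, SE 0.042) and GAPDH (-0.17, SE 0.032), with edgeR adjusted p = 0.000681, 0.00032, 0.0332 and 0.00134 in that order. TPI1 was named after its values were seen. P3H3 had 61.7, 68 and 60 CPM in the p65 line with guides and 75.3, 83 and 77.8 CPM in the VP64 line with guides, so its groups did not overlap.

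**Figure D4:**
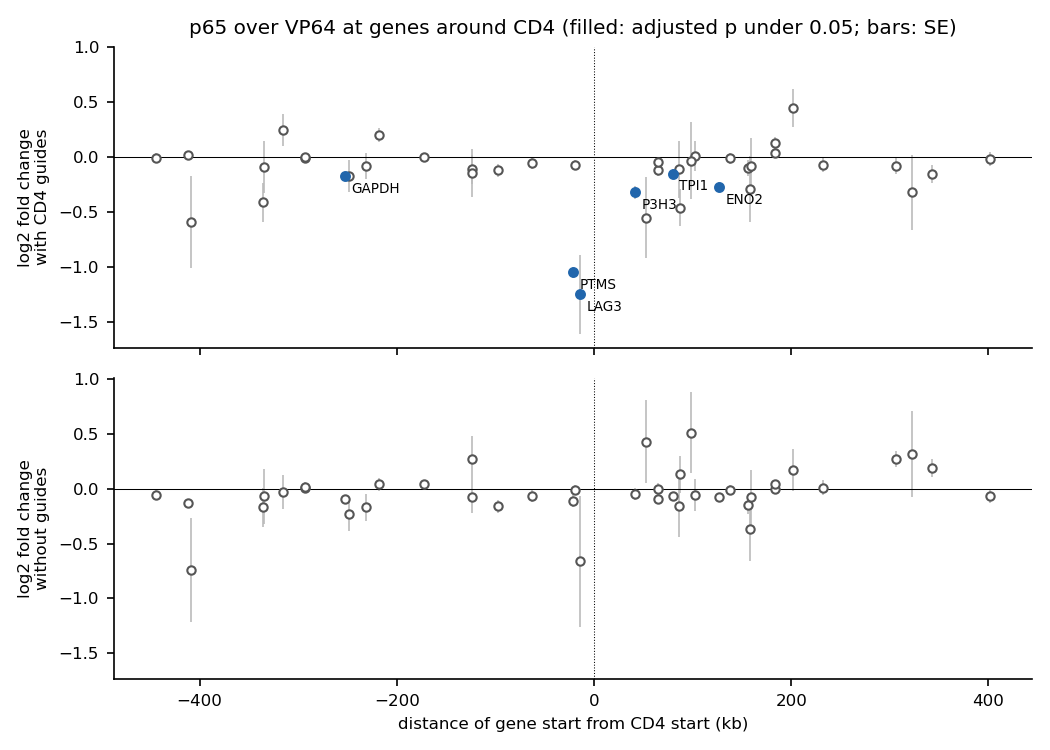
Log2 fold change of p65 over VP64 (vertical, bars are SE) for the 42 tested genes by the distance of their start from the start of CD4 in kb (horizontal, negative is upstream), with guides above and without guides below. Filled points passed the test; PTMS and LAG3 fall furthest with guides, and none of the 42 passed without guides.

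Lists of pathway genes are described by their counts, beside the share of all genes called (3.72% higher and 4.2% lower with guides), and their median, beside a median of 0.00 over all genes. For lists with 0 called in a direction with guides, 0 to 5 members had an unadjusted p below 0.05 in that direction and 0 or 1 was called in DESeq2. Counts are over members that passed the low-count filter, which was every member of most lists and, as examples of the others, 16 of 20 melanocyte genes, 16 of 21 collagens, 17 of 24 matricellular genes, 4 of 10 metallothionein and zinc genes and 42 of 82 neighbours of CD4. Members outside the 4 of each list with the smallest p were named after their values were seen. Some genes are in more than 1 list, so the same call can count more than once. Examples are CCND1 (G1 and ERK lists), CDK2 (G1 and melanocyte lists) and TGFBI (dedifferentiated and TGF-beta lists). Of 21 NF-kB subunits and regulators, 5 were higher and 2 lower with p65, with a median of 0.07, and without guides 0 were higher and 1 lower. MAP3K14, the kinase that starts the noncanonical NF-kB pathway, had 98.7, 101 and 98.3 CPM in the p65 line with guides and 60.2, 69 and 78.3 CPM in the VP64 line with guides (0.52, SE 0.063, adjusted p = 9.7e-06). NFKB2, the precursor that pathway processes, had 143, 150 and 135 CPM in the p65 line with guides and 120, 117 and 113 CPM in the VP64 line with guides (0.29, SE 0.048, adjusted p = 0.000363). The deubiquitinase CYLD (0.30, SE 0.054) and the ubiquitin ligases BIRC2 (0.23, SE 0.056) and BIRC3 (0.29, SE 0.074) were also higher (edgeR adjusted p = 0.00107, 0.0142 and 0.0179 in that order). NFKB1, the precursor of p50 (-0.31, SE 0.049, adjusted p = 0.000227), and BCL3, a nuclear IkB protein (-0.38, SE 0.114, adjusted p = 0.04), were lower, and the feedback inhibitors NFKBIA (-0.16, SE 0.083, adjusted p = 0.3) and TNFAIP3 (-0.45, SE 0.166, adjusted p = 0.107) did not pass. The MAP3K14 difference depended on guides (0.51, SE 0.093, adjusted p = 0.0056), a call lost with the effective-length offset, as was the CYLD call with guides (0.31).

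Inflammatory and interferon genes did not move one way. Of 18 secreted factors, 2 were higher and 2 lower with p65 with guides (median -0.06). IL11, a cytokine of the IL-6 family, had 96.2, 97 and 119 CPM in the p65 line with guides and 81.2, 71.4 and 82.9 CPM in the VP64 line with guides (0.41, SE 0.068, adjusted p = 0.000387). CCL5, a chemokine for T cells, was higher (0.72, SE 0.218, adjusted p = 0.0448), a call lost without any one of the 6 libraries (0.64 to 0.76). CXCL1, a neutrophil chemokine (-0.56, SE 0.079, adjusted p = 5.99e-05), and LIF, another cytokine of the IL-6 family (-0.32, SE 0.042, adjusted p = 3.05e-05), were lower, as they were without guides (-0.51 and -0.49). Of 29 interferon-stimulated genes, 2 were higher and 3 lower (median -0.08). The translation inhibitors IFIT3 (-0.70, SE 0.104) and IFIT2 (-0.61, SE 0.104) and the ubiquitin-like protein ISG15 (-0.37, SE 0.094) were lower, while IFI44 (0.41, SE 0.087) and the exonuclease ISG20 (0.45, SE 0.098) were higher (edgeR adjusted p = 0.00012, 0.000479, 0.0157, 0.00376 and 0.00536 in that order). The calls of IFI44 (0.46) and ISG20 (0.44) were lost with the effective-length offset.

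Among antigen presentation genes with guides, edgeR called class I members only higher and class II members only lower, but class I ran both ways. Class I log2 fold changes spanned -0.26 to 0.19. At an unadjusted edgeR p below 0.05, 4 class I members were higher and 4 lower, and DESeq2 called 4 higher and 1 lower. Of 17 MHC class I genes, 4 were higher (TAP2, HLA-B, PSME2 and B2M, log2 fold changes of 0.12 to 0.19) and 0 lower (median 0.03), but with only the 6 libraries compared in the fit 0 were called higher, and when single libraries were left out 0 (without replicate A of the VP64 line with guides) to 5 were. Of 12 MHC class II genes, 0 were higher and 4 lower (median -0.24). HLA-DRA, the alpha chain of HLA-DR, had 256, 243 and 197 CPM in the p65 line with guides and 269, 319 and 298 CPM in the VP64 line with guides (-0.35, SE 0.073, adjusted p = 0.00356). HLA-DRB1 (-0.27), HLA-DPB1 (-0.30) and HLA-DPA1 (-0.16) lost their calls without replicate C of the p65 line with guides (-0.17, -0.16 and -0.11 in that order) and without replicate B of the VP64 line with guides (-0.21, -0.24 and -0.12), and the list then had 1 member called in each case. HLA genes share sequence, so their reads are uncertain. HLA-DRB1 (-0.27), HLA-DPB1 (-0.30) and HLA-DPA1 (-0.16) also lost their calls with only the 6 libraries compared in the fit. With the effective-length offset HLA-DRB1 (-0.27) and HLA-DPB1 (-0.25) lost the call and HLA-DPA1 stood at 0.00. The HLA-DPB1 call was lost in DESeq2 too (-0.29).

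Genes of growth factor signalling were more often lower than higher with p65. Of 22 immediate-early transcription factors, 1 was higher and 9 were lower with guides (median -0.21), and 1 was higher and 7 lower without guides (median -0.21, where 0.388% and 1.72% of all genes were called). Besides FOS, EGR1 and JUN, KLF4 (-0.71, SE 0.128, adjusted p = 0.000984) and KLF6 (-0.30, SE 0.039, adjusted p = 2.64e-05), both zinc-finger factors, were lower with guides. Of 19 genes of ERK output and feedback, 0 were higher and 9 lower with guides (median -0.20), against 0 and 3 without guides (median -0.07). IER3, an immediate-early survival gene, had 247, 247 and 221 CPM in the p65 line with guides and 384, 385 and 345 CPM in the VP64 line with guides (-0.64, SE 0.052, adjusted p = 3.54e-08), and its difference depended on guides (-0.31, SE 0.074, adjusted p = 0.0437), a call lost with DESeq2 size factors (-0.30), with only the libraries compared (-0.31), with the effective-length offset (-0.32) and without any one of 7 of the 12 libraries (-0.33 to -0.26). CCND1, cyclin D1, had 955, 967 and 865 CPM in the p65 line with guides and 1180, 1220 and 1180 CPM in the VP64 line with guides (-0.36, SE 0.038, adjusted p = 1.31e-06). The p65 libraries lay below all VP64 libraries for both genes. The ETS factor ETV1 (-0.35) and PHLDA1 (-0.22) were also lower, and ETV1 stood at -0.54 with the effective-length offset.

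Melanoma state genes differed in both directions. Of 16 melanocyte lineage genes, 0 were higher and 6 lower with guides (median -0.28), and 1 was higher and 1 lower without guides (median -0.01). ERBB3, the neuregulin receptor, had 26.6, 24.2 and 20.9 CPM in the p65 line with guides and 33.1, 45.3 and 40 CPM in the VP64 line with guides (-0.73, SE 0.099, adjusted p = 4.06e-05), a call lost with the effective-length offset (-0.58). GPNMB, a melanosomal glycoprotein (-0.35, SE 0.042), and SOX10 (-0.27, SE 0.057) were lower too (edgeR adjusted p = 7.65e-06 and 0.00386 in that order). Of 18 genes of dedifferentiated melanoma, 4 were higher and 5 lower with guides (median -0.06), and 0 were higher and 7 lower without guides. NGFR, the low-affinity nerve growth factor receptor and a neural crest marker, had 125, 124 and 95.6 CPM in the p65 line with guides and 209, 235 and 206 CPM in the VP64 line with guides (-0.92, SE 0.081, adjusted p = 1.29e-07), and it fell without guides too (-0.91, SE 0.084, adjusted p = 7.97e-07). The intermediate filament VIM was lower in both comparisons (-0.25 and -0.28). Without replicate B of the VP64 line with guides 2 members of this list were called higher.

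FN1, fibronectin, was higher with p65 with guides (0.41, SE 0.076, adjusted p = 0.00114) and lower without guides (-0.36, SE 0.076, adjusted p = 0.0103), a dependence of 0.77 (SE 0.107, adjusted p = 0.000313). The FN1 call without guides was lost without replicate A of the p65 line or B of the VP64 line (-0.33 in both) and with the effective-length offset (-0.31). Of 20 targets of YAP and TEAD, the transcription factors of the Hippo pathway, 8 were higher and 1 lower with guides (median 0.13), against 1 higher and 3 lower without guides (median -0.02). ANKRD1, a cardiac ankyrin repeat protein, had 167, 169 and 224 CPM in the p65 line with guides and 135, 116 and 140 CPM in the VP64 line with guides (0.52, SE 0.083, adjusted p = 0.000267). CCN2, connective tissue growth factor (0.37, SE 0.065), and the Hippo kinase LATS2 (0.31, SE 0.060) were also higher (edgeR adjusted p = 0.000676 and 0.0017 in that order). Without replicate B of the VP64 line with guides 5 of the 20 were called higher. The GTPase regulator DLC1 (0.29) lost its call with the effective-length offset (0.32).

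Matrix genes were more often lower. Of 17 matricellular and matrix proteins, 2 were higher and 6 lower with guides (median -0.13), and 0 were higher and 6 lower without guides (median -0.24). MMP2, a gelatinase, had 50, 48.8 and 42.3 CPM in the p65 line with guides and 78.2, 76.5 and 74.5 CPM in the VP64 line with guides (-0.70, SE 0.062, adjusted p = 1.16e-07), with a like fold without guides (-0.73, SE 0.064, adjusted p = 6e-07). THBS1, thrombospondin 1, fell less with guides (-0.23, SE 0.037, adjusted p = 0.000212) than without (-0.63, SE 0.037, adjusted p = 4.48e-10), and this difference passed the test (0.40, SE 0.052, adjusted p = 0.000178). Of 21 integrins and laminins 1 was higher and 6 were lower (median -0.12), led by the TGF-beta-activating integrin ITGB8, with 25.8, 22.1 and 19.9 CPM in the p65 line with guides and 34.7, 48.8 and 44.5 CPM in the VP64 line with guides (-0.93, SE 0.099, adjusted p = 1.82e-06). ITGB5 (-0.31) lost its call with the effective-length offset (-0.18). Of 18 genes of the TGF-beta and BMP response 1 was higher and 4 were lower (median -0.15; 2 lower without replicate C of the p65 line with guides), and of 16 collagen chains 1 was higher and 3 were lower (median -0.09). COL6A3 (-0.67) lost its call without replicate B (-0.64) or C (-0.67) of the p65 line with guides and without replicate A (-0.58) or C (-0.59) of the VP64 line with guides, and it stood at -2.31 with the effective-length offset. The COL6A3 call was also lost with only the libraries compared in the fit and with no low-count filter (-0.67 in both).

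Among metabolic lists, 0 of 27 glycolysis and hypoxia genes were higher and 9 lower with guides (median -0.11), with 0 and 5 without guides (median -0.07). SLC2A1, the glucose transporter GLUT1, had 728, 732 and 709 CPM in the p65 line with guides and 981, 899 and 856 CPM in the VP64 line with guides (-0.33, SE 0.047, adjusted p = 5.99e-05). NDRG1, a hypoxia-induced gene, was lower by a like amount with and without guides (-0.30 in both), and both calls were lost with the effective-length offset (-0.28 with guides and -0.31 without). Of 22 cholesterol synthesis genes 0 were higher and 2 lower (median -0.10), and of 15 LXR and PPAR genes 0 were higher and 2 lower (median -0.07). The members of that list called lower were SCD, the stearoyl-CoA desaturase, with 323, 323 and 250 CPM in the p65 line with guides and 407, 477 and 406 CPM in the VP64 line with guides (-0.53, SE 0.072, adjusted p = 3.81e-05), and the lipogenic factor SREBF1 (-0.47, SE 0.084, adjusted p = 0.000715), whose call was lost with the effective-length offset (-0.47). The SCD difference depended on guides (-0.46, SE 0.104, adjusted p = 0.032), a call lost without replicate B of the VP64 line with guides (-0.38) and without any one of 5 libraries without guides (-0.48 to -0.43). Of 19 NRF2 and ferritin genes 0 were higher and 6 lower (median -0.11), among them the ferritin light chain FTL (-0.30, SE 0.047, adjusted p = 0.000236).

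Among stress and proliferation lists, those of G1 genes, of ATF4 and CHOP targets, of p53 targets and of the unfolded protein response had 37.5%, 28.6%, 22.7% and 16.7% of members called in that order, against 7.92% of all genes. Of 18 unfolded protein response genes 0 were higher and 3 lower (median -0.09), led by the chaperone HSPA5 (-0.19, SE 0.038, adjusted p = 0.00301), and of 21 targets of ATF4 and CHOP 1 was higher (STC2, a secreted glycoprotein, 0.33, SE 0.053, adjusted p = 0.000255) and 5 were lower (median -0.13). Of 22 p53 targets 2 were higher and 3 lower (median -0.06), with the cytokine GDF15 at -0.44 (SE 0.073, adjusted p = 0.000413). In edgeR 0 of 29 DNA replication genes were called with guides, with 1 higher and 1 lower at an unadjusted p below 0.05 and 0 in DESeq2 (median 0.01), and of 22 mitosis genes 1 was higher and 0 lower (median -0.03). Of 16 G1 cyclins and inhibitors 1 was higher and 5 were lower (median -0.14). In edgeR 0 of 32 cytosolic ribosomal protein genes were called, with 5 higher and 1 lower at an unadjusted p below 0.05 and 1 higher in DESeq2 (median 0.01), and of 39 coactivator genes 1 was higher and 0 lower (median 0.03), as was 1 of 16 heat shock chaperones (median 0.02). Of 4 metallothionein and zinc genes 1 was higher, the zinc exporter SLC30A1, and 2 were lower. Without replicate B of the VP64 line with guides the lower calls were 1 in the unfolded protein response, 1 among p53 targets and 3 among G1 genes, and 0 of the metallothionein and zinc genes were higher.

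Mitochondrially encoded messages moved with p65 in both comparisons. Of 13 such genes, 9 were higher and 0 lower with guides (median 0.33), and 7 were higher and 0 lower without guides (median 0.37). MT-CO3, a subunit of cytochrome oxidase, had 1880, 1770 and 1760 CPM in the p65 line with guides and 1430, 1370 and 1510 CPM in the VP64 line with guides (0.33, SE 0.066, adjusted p = 0.00243). The 13 genes took 1.98%, 1.72% and 1.7% of counts in the p65 line with guides and 1.38%, 1.32% and 1.56% in the VP64 line with guides, and the groups did not overlap. With guides the number called higher was 2 without replicate A of the p65 line, 3 without replicate A and 1 without replicate B of the VP64 line, 3 in DESeq2 and 2 with the effective-length offset. Without guides it was 2 without replicate B of the p65 line and 2 without replicate A or B of the VP64 line. The part of this share in other results was not tested.

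Markers of other cell types showed few differences. T cell markers had 2 tested members, IL7R (0.09) and TRAC (0.26), and neither passed. CD3D, CD3E, CD3G, CD2 and CD7 were at 0 in all 6 libraries. The remaining members brought the sum of the 9 listed markers to 41.2 to 54.6 TPM in the p65 line with guides. In the VP64 line with guides that sum was 42.5 to 44.2 TPM. In edgeR 0 of 9 myeloid markers were called, with 1 higher and 3 lower at an unadjusted p below 0.05 and 0 in DESeq2, and their summed level was 145 to 157 TPM in the p65 line with guides and 165 to 178 TPM in the VP64 line with guides. In edgeR 0 of 3 fibroblast and endothelial markers were called, with 0 at an unadjusted p below 0.05 and 0 in DESeq2. Of 6 epithelial markers KRT19, a keratin, was the 1 called (-0.62, SE 0.182, adjusted p = 0.0389), a call lost without replicate B (-0.58) or C (-0.56) of the p65 line with guides and without replicate A of the VP64 line with guides (-0.39). The KRT19 call was also lost with only the libraries compared in the fit (-0.62) and with the effective-length offset (-0.67).

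**Figure D5:**
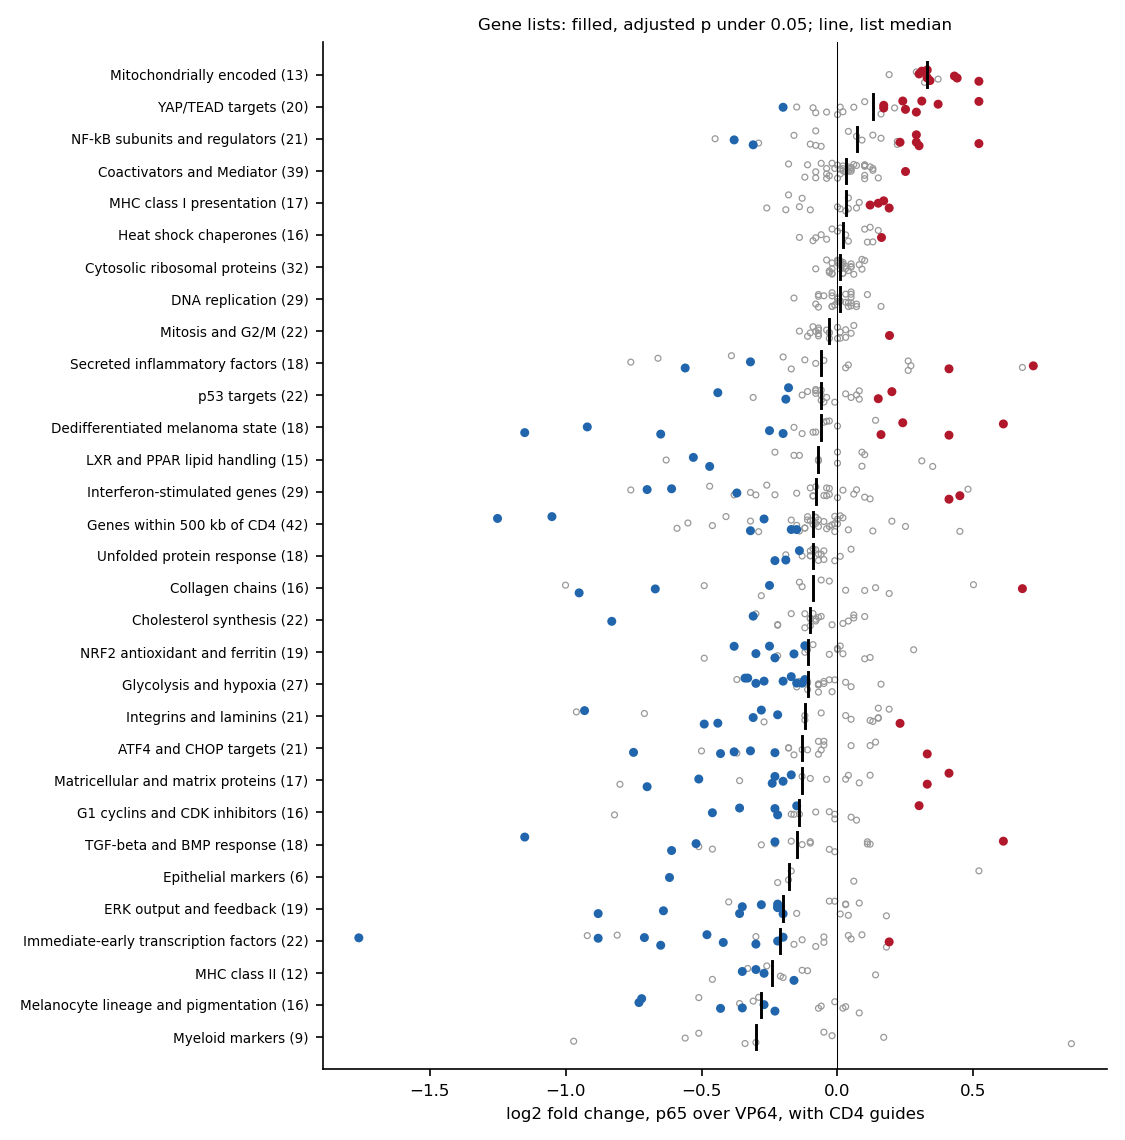
Each point is a tested member of a list (number of members in brackets) by its log2 fold change of p65 over VP64 with guides; filled points passed the test, red higher and blue lower with p65, and the black line is the list median; the T cell, fibroblast and endothelial, and metallothionein lists, with few tested members, and the complement list are not drawn. Mitochondrially encoded genes have a median of 0.33 and YAP/TEAD targets 0.13, while melanocyte genes (-0.28), immediate-early factors (-0.21) and ERK output genes (-0.20) lie below 0.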

How the data were processed

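RNA from the 15 libraries was sequenced after cells were grown to confluency, scraped and frozen as pellets for a service provider, per the labels' protocols. Per the submitters' processing notes the tools were STAR and RSEM and the genome was hg38. The sources used here give no versions, settings or strandedness. The deposited expected counts are RSEM's estimated reads per gene, and TPM in the same deposited tables is its length-scaled abundance, per the file headers. Effective lengths, a further deposited measure in bases and of the unit other, are RSEM's per-gene means, per the file headers. Each table had 58813 entries, of which 92 were spike-ins with 0 to 7 counts per library, and these were left out. The remaining 58721 identifiers matched GENCODE release 29, and 58252 had a current symbol.

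Expected counts were rounded and fitted in edgeR 4.0.16 (R 4.3.3) by quasi-likelihood over all 15 libraries, with 1 coefficient per line, TMM factors of 0.983 to 1.01 and a low-count filter (filterByExpr, 10 counts) that kept 14961 genes. The coefficient of variation between replicates beyond counting error, in edgeR's common estimate, was 5.45%. The 3 comparisons were p65 against VP64 with guides, the same without guides, and the difference of these folds (dependence on guides). CPM used rounded counts with TMM factors. The fit was checked on simulated data. Results for some genes are not reported here. Depth was 15643705 to 23072512 counts per library, so genes near 0 CPM rest on few counts. Libraries of a line differed by more than sampling noise, so none was taken as a repeat deposit. Letters A, B and C were not treated as pairing lines in the main fit. Over all tested genes, same-letter libraries of the p65 and VP64 lines with guides correlated at 0.024 to 0.096 in their deviations from the line means. That correlation does not speak to single genes such as FOS and EGR1, which fell from A to C in all 5 lines. Their SE in the main fit therefore includes the spread between letters.

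Named genes were CD4 and RELA, in each direction up to 15 called genes of greatest log2 fold change with a symbol, with a mean of 1 CPM or more and no overlap between the 3 and 3 libraries, up to 4 per list with the smallest p, and up to 5 per direction with the largest dependence on guides among genes called with guides. The libraries compared and the 35 lists were chosen with earlier results of these data known, so a list's direction is not independent evidence. Alternatives were the size factors and the Wald test of DESeq2 1.42.0, no low-count filter or one on a mean of 1 CPM, fits to the compared libraries alone, a block for the replicate letter, expected counts left unrounded, an offset for effective length and the omission of each library in turn.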

Additional observations from a re-analysis of the deposited data

Results flagged for a closer look

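The difference between p65 and VP64 was itself tested between the lines with and without guides, and it passed for 143 genes by edgeR's adjusted p (0.956% of those tested). Each value here is the log2 fold change of p65 over VP64 with guides minus that without guides. Among named genes with a more positive fold with guides, the peptide carrier SLC15A2 stood at 5.12, TFEC at 2.28, SSUH2 at 1.69 and TFCP2L1 at 1.61. The SLC15A2 value has a 95% interval of 3.55 to 6.70 and rests on 8 to 12 counts in each line other than p65 with guides. Matrix and Hippo pathway genes followed with FN1 at 0.77, CCN2 at 0.40 and THBS1 at 0.40. IFI44 stood at 0.63, IL11 at 0.54, MAP3K14 at 0.51, STC2 at 0.44 and the death receptor TNFRSF10B at 0.25.

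Among named genes with a more negative fold with guides, PTMS, near CD4, stood at -0.94. TOX2 stood at -0.79, MT1X at -0.64, INSIG1 at -0.61 and TMEM59L at -0.61. SCD stood at -0.46, IER3 at -0.31, CCND1 at -0.26 and HSPA5 at -0.24. THBS1 was lower with p65 in both comparisons and FN1 changed sign between them.

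Among these genes, PTMS, TFCP2L1, FN1 and THBS1 kept the call on this difference under every alternative run, and the others lost it with the effective-length offset. INSIG1 (-0.56) also lost it without replicate C of the p65 line without guides, SSUH2 (1.33) without replicate A of the VP64 line without guides, and TFEC without replicate B (2.07) or C (2.12) of that line. TNFRSF10B lost it without replicate A of the p65 line (0.23) or B of the VP64 line (0.22) without guides. The calls of TMEM59L (-0.65 to -0.53), HSPA5 (-0.25 to -0.20), CCN2 (0.31 to 0.41), CCND1 (-0.26 to -0.24) and IFI44 (0.55 to 0.64) were each lost without any one of 4 or more single libraries, with those values. With DESeq2 size factors TMEM59L (-0.60) and IER3 (-0.30) lost it, and with only the libraries compared TMEM59L (-0.61), IER3 (-0.31), CCN2 (0.40) and SCD (-0.46) lost it.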

How the results depend on the processing

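The total of 1185 genes with guides was 706 with only the libraries compared, 437 with the effective-length offset and 681 to 1129 when single libraries were left out, and the 65 that differed at least 2-fold became 127 with no low-count filter, 40 under the 1 CPM filter, 42 in DESeq2, 39 with the offset and 52 to 92 when single libraries were left out. Without guides, 315 became 545 with no filter, 109 with the offset and 185 to 301 when single libraries were left out, and the 10 at least 2-fold became 74, 3 and 6 to 10 in that order and 4 in DESeq2. The dependence on guides held for 143 genes, against 360 with no filter, 247 in DESeq2, 31 with the offset and 91 to 176 when single libraries were left out, and for 12 at least 2-fold, against 74 with no filter, 5 with the offset and 10 to 18. The cause of these shifts was not tested. No scaling alternative moved the share of higher calls by more than 10 percentage points, with 47% higher among calls with guides, or 50.8% under DESeq2 size factors, but the share among dependence calls was 66.1% with no filter, against 80.4%.

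CD4 stayed between 0.09 and 0.17. RELA stayed near 0, at -0.00 under the 1 CPM filter and from -0.01 to 0.02 when single libraries were left out. HLA-DPA1 was 0.00 with the offset, IL7R ran from -0.03 to 0.15 and PECAM1 from -0.06 to 0.65 when single libraries were left out. Of 123 named genes called with guides, 79 kept the call under every alternative run for them, while 40 lost it with the offset, 22 without replicate B of the VP64 line with guides and 20 without replicate C of the p65 line with guides. With the replicate block 1048 genes were called with guides, and 3 of the 123 named genes lost the call (B2M, HLA-DPA1 and PSG2). The block also ended the dependence calls of TMEM59L (-0.61), HSPA5 (-0.24), CCN2 (0.40) and IER3 (-0.31). Over all tested genes the deviations of same-letter libraries with guides correlated weakly (0.024 to 0.096). Even so, 5 of the 6 libraries with guides correlated best with the library of their own letter in the other line. Depth limits the genes near 0 CPM, such as ECRG4 with 4 counts in the VP64 line with guides.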
